A study of Homo sapiens with 6 samples.

Results

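RPPH1 and RMRP, the RNA subunits of the enzymes RNase P and RNase MRP, were examined in short RNA sequencing of Caco2 cells, a human cell line of colon epithelium, with and without a knockout of PIWIL2. Both were found in the deposited table by the RefSeq symbol of the row's accession, NR_002312 for RPPH1 and NR_003051 for RMRP, so that 2 of the 3437 rows of the table are described, with 1 row for each gene. The study sequenced 3 Caco2 WT samples and 3 PIWIL2 KO samples, all of cells grown to confluency. PIWIL2 KO cells descend from 1 clone made with CRISPR/Cas9 and a guide against exon 14, in which the study's sequencing of the locus found an unaffected allele next to the modified one. The comparison therefore sets 1 clone with partial loss of PIWIL2 against the unedited line, and the clone, the edit and the libraries cannot be told apart. PIWIL2 has no row in the table, so the level of the targeted gene was not analysed here. The table holds 1 value per genotype and strand, in CPM, a read count scaled to the number of reads that map uniquely to hg19, without a value for each sample. No SD and no test between genotypes could be computed, and the intervals given here cover counting error in the reads behind each value only.

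RNase P and RNase MRP are ribonucleoprotein enzymes that share most of their protein subunits and differ in the RNA that forms the catalytic core. RNase P cuts the 5′ leader from precursor transfer RNAs, and RNase MRP cuts precursor ribosomal RNA in the nucleolus. Both RNAs are transcribed by RNA polymerase III, which ends transcription at a run of T bases, and both are abundant in dividing cells. A short RNA library does not hold these RNAs whole, so the reads counted for them are pieces of the RNA or short products of it.

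The row of RPPH1 begins at position 20811230 of chromosome 14 and that of RMRP at position 35657748 of chromosome 9, both on the minus strand of hg19. RefSeq gives RPPH1 a length of 341 bases, which places it at chr14:20811230-20811570. GENCODE release 44, mapped to GRCh37 (the same assembly as hg19), places RMRP at chr9:35657751-35658014, a model of 264 bases, while RefSeq gives the RNA 270 bases. The table names every row as a 3′ UTR, also for RNAs that code for no protein. All 688 rows of non-coding transcripts lie on the minus strand and 0 on the plus strand, against 1345 and 1404 rows of coding transcripts. The row starts of RPPH1 and RMRP lie at the 3′ ends of these RNAs, and the row names give no end. The sequences are printed because they are the RNAs for which the 2 rows are named. The first 300 bases of RPPH1 (chr14:20811271-20811570) and the whole GENCODE model of RMRP (chr9:35657751-35658014) read as follows, 5′ to 3′ on the minus strand of GRCh37, with capitals for bases in a 20-base stretch that has a second exact match elsewhere in the genome.
RPPH1: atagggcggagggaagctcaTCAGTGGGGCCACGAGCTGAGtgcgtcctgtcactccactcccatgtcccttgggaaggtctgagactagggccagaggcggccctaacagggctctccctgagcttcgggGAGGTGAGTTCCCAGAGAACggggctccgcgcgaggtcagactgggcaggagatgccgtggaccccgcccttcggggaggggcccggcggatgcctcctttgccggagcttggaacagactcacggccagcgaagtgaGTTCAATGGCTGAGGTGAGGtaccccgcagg
RMRP: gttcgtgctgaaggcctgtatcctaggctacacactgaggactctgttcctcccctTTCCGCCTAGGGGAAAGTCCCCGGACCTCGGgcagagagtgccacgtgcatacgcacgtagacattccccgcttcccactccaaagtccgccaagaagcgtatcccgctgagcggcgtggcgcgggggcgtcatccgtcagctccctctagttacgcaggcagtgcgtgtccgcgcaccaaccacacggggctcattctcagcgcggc

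At stretches of 20 and 25 bases, little of either sequence has a second exact match in the genome. Shorter stretches and matches with mismatches were not searched. The paper describes a peak of transposon-mapped short reads below 20 bases, so how many reads of the 2 rows fit only 1 place is not known. Of the 322 stretches of 20 bases in RPPH1, 4 had another exact match on the assembled chromosomes, and of the 245 in RMRP 12 had one. The repeated bases of RPPH1 lie at positions 21 to 41, 132 to 151 and 270 to 289 from its 5′ end, and those of RMRP at positions 57 to 87. At 25 bases, 0 of 317 stretches of RPPH1 and 7 of 240 of RMRP had a second match. GENCODE lists 2 pseudogenes of RPPH1 and 5 of RMRP, and no stretch of 20 bases matched at more than 1 other place. The longest stretch that both RNAs share is 9 bases. Both are rich in G and C, at 63.6% for RPPH1 and 63.3% for RMRP, and a run of 5 T bases crosses the 3′ end of RPPH1 while a run of 6 begins 3 bases after the GENCODE end of RMRP. No read of 20 bases or more can match both RNAs exactly, and the lengths of the reads behind the 2 rows were not analysed here.

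Each gene has a close neighbour on the opposite strand. PARP2, which codes for a DNA repair enzyme, starts at 20811774 on the plus strand, 204 bases from the 5′ end of RPPH1. CCDC107 starts at 35658287 on the plus strand, 273 bases from the 5′ end of RMRP. In addition, RPPH1 lies inside a longer non-coding gene of the same strand, ENSG00000259001 (chr14:20811207-20811844), whose reads cannot be told apart from those of RPPH1. Neither PARP2 nor CCDC107 has a row in the table.

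Sense short RNA of RPPH1 was higher in PIWIL2 KO than in Caco2 WT. The value was 21.7 CPM in Caco2 WT, or an estimated 280 reads (95% Poisson counting interval 19.3 to 24.4 CPM). In PIWIL2 KO it was 40.9 CPM, or 554 reads (37.5 to 44.4 CPM), so that the counting intervals of the 2 genotypes do not overlap. PIWIL2 KO thus had 1.88 times the value of Caco2 WT (exact 95% counting interval 1.63 to 2.18), a difference of 19.2 CPM. On the log2 scale, with 0.1 CPM added to both values, the ratio was 0.91 as deposited, and from 0.28 to 0.98 under 4 other scalings. More cells with an RNA and more of it in each cell cannot be told apart in such bulk samples.

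Sense short RNA of RMRP, as deposited, was higher in PIWIL2 KO by a smaller factor, but its log2 ratio was below 0 when the genotypes were scaled to the same sum, to the same median of rows or to the same median of SNORD rows. The value was 15.1 CPM in Caco2 WT (13.1 to 17.4 CPM, 195 reads). It was 20.3 CPM in PIWIL2 KO (17.96 to 22.8 CPM, 275 reads), and these intervals do not overlap either, though they come close. The ratio was 1.34 (1.11 to 1.62), a difference of 5.17 CPM and a log2 ratio of 0.42. Neither RNA reached a 2-fold difference.

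**Figure D1:**
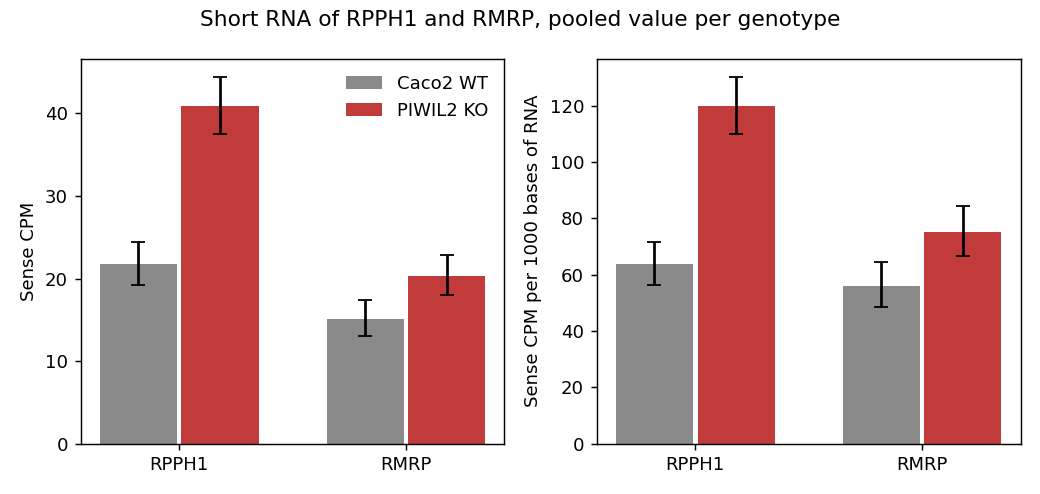
Bars give the pooled sense value of RPPH1 and RMRP in Caco2 WT (grey) and PIWIL2 KO (red), in CPM on the left and in CPM per 1000 bases of RNA on the right, and error bars are 95% Poisson counting intervals with no replicate error. RPPH1 goes from 21.7 to 40.9 CPM as deposited (log2 ratio 0.91, or 0.48 when the sums of the table are made equal) and RMRP from 15.1 to 20.3 CPM as deposited, while RMRP is lower in PIWIL2 KO when the sums of the table are made equal (log2 ratio -0.0054).

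Many other rows differed in the same way, which sets the scale for these ratios. Among the 161 rows that averaged 0.3 sense CPM or more, 111 were higher and 49 lower in PIWIL2 KO, with a median log2 ratio of 0.48. At least 2-fold higher were 44 rows, or 27.3%, and at least 2-fold lower were 14, or 8.7%. The counting interval of the ratio lay above 1 for 67 rows, or 41.6%, RPPH1 and RMRP among them, and below 1 for 16 rows, or 9.94%. An interval above 1 was thus common in the table. By log2 ratio RPPH1 stood at place 46 of 161, with 71.4% of the rows below it. RMRP stood at place 85, with 47.2% of the rows below it, and its log2 ratio was lower than the median of all rows.

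**Figure D2:**
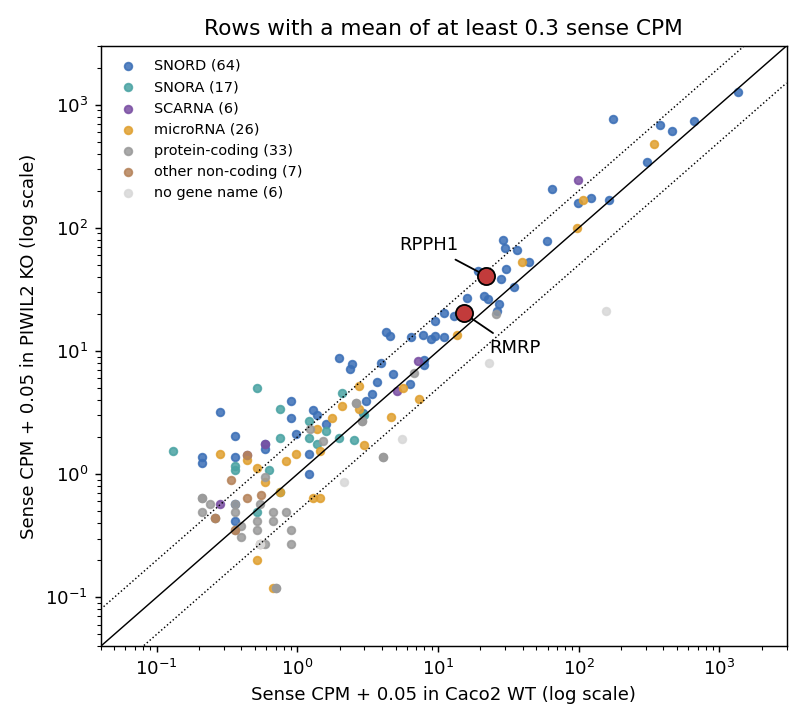
Each point is 1 of 161 rows, with sense CPM plus 0.05 in Caco2 WT on the x axis and in PIWIL2 KO on the y axis, both on log scales, coloured by class of RNA. The solid line marks equal values and the dotted lines a 2-fold difference, and RPPH1 and RMRP (large red points) both lie between the solid and the upper dotted line as deposited, where rescaling to equal sums would put RMRP just below the solid line.

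The ratios of these rows depend on how the genotypes are scaled to each other. CPM as deposited is scaled to uniquely mapped reads, and sense CPM summed over all rows to 5511 in Caco2 WT and 7409 in PIWIL2 KO. Rows of box C/D snoRNAs (SNORD) made up 4373 and 6029 CPM of these sums. SNORD17 alone had 174 CPM in Caco2 WT and 760 in PIWIL2 KO. Scaling to equal sums is thus largely a scaling to SNORD rows. When PIWIL2 KO was rescaled to the same sum, 84 rows were higher and 77 lower, against 111 and 49 as deposited, and 26 were at least 2-fold higher and 23 at least 2-fold lower. The log2 ratio of RPPH1 was then 0.48 (0.28 to 0.70) and that of RMRP -0.0054 (-0.27 to 0.27). The higher value of RMRP therefore did not hold under this scaling. As a share of all sense CPM in the table, RMRP made up 0.275% in Caco2 WT and 0.274% in PIWIL2 KO, while RPPH1 made up 0.394% and 0.552%. Centred on the median of protein-coding rows, the log2 ratios were 0.98 for RPPH1 and 0.49 for RMRP.

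**Figure D3:**
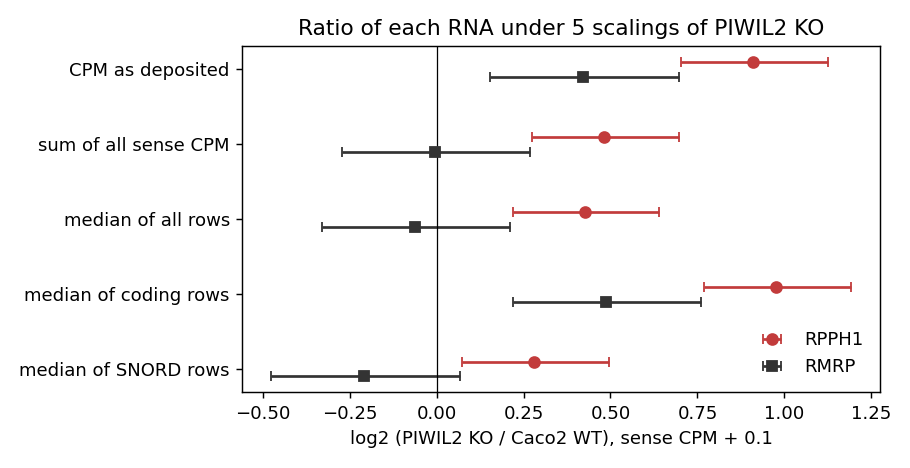
Points give the log2 ratio between PIWIL2 KO and Caco2 WT of RPPH1 (red circles) and RMRP (black squares) on the x axis under 5 scalings of PIWIL2 KO on the y axis, and bars are 95% counting intervals. RPPH1 stays above 0 under all 5, from 0.28 to 0.98, and RMRP ranges from -0.21 to 0.49.

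The 2 RNAs were also compared with each other inside each genotype, which no scaling between genotypes can change. RPPH1 had 1.44 times the sense CPM of RMRP in Caco2 WT (1.19 to 1.73) and 2.01 times in PIWIL2 KO (1.74 to 2.34). The log2 ratio of RMRP was 0.49 below that of RPPH1 (exact conditional 95% counting interval of the difference -0.83 to -0.14). The balance between the RNAs thus differed between the 2 pooled values by more than counting error, and the spread between samples is not known. Their sum was 36.9 CPM for Caco2 WT and 61.2 for PIWIL2 KO, or 0.669% and 0.826% of all sense CPM in the table.

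Levels of RNAs with different lengths were compared per 1000 bases of RNA, with the RefSeq lengths. In Caco2 WT the level of RPPH1 was 63.7 CPM per 1000 bases (56.4 to 71.6) and that of RMRP 56.0 (48.4 to 64.5). These intervals overlap, and the ratio of 1.14 per base had an interval that includes 1 (0.944 to 1.37). In PIWIL2 KO the levels were 120 CPM per 1000 bases for RPPH1 (110 to 130) and 75.2 for RMRP (66.5 to 84.6), a ratio of 1.59 (1.38 to 1.85). Among 89 rows of small nucleolar RNAs (snoRNAs), small Cajal body RNAs and these 2 RNAs past the minimum of 0.3 CPM, RPPH1 ranked at 38 by level per base in Caco2 WT and at 39 in PIWIL2 KO. RMRP ranked at 40 and 43. Both thus sat near the middle of the structured nuclear RNAs of the table in both genotypes.

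By sense CPM without regard to length, RPPH1 held place 30 of all rows in Caco2 WT and place 23 in PIWIL2 KO. Its neighbours in Caco2 WT were SNORD83B at 22.7 CPM and SNORD58C at 21.3 CPM, which differed from it by less than counting error (20.1 to 25.4 and 18.9 to 24.0 CPM). In PIWIL2 KO these snoRNAs had 26.5 and 27.8 CPM. RPPH1 there stood between SNORD18A at 45.0 CPM (41.4 to 48.7) and SNORD47 at 38.7 CPM (35.4 to 42.1), whose intervals overlap with its own. RMRP held place 34 in Caco2 WT, between SNORD82 at 15.9 CPM and SNORD80 at 14.8 CPM, and place 32 in PIWIL2 KO. The rows next to it in PIWIL2 KO were NM_001190702, which has no matched gene name, at 21.0 CPM (156 CPM in Caco2 WT) and SNORD5 at 20.2 CPM. All of these neighbours of RMRP lay within its counting interval.

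Antisense short RNA was listed at 0 CPM for both RNAs in both genotypes. A count of 0 was given a fixed limit of 3 reads, that is, 0.233 CPM for Caco2 WT and 0.221 for PIWIL2 KO. The 95% Poisson interval used for the sense values reaches higher for a count of 0. For RPPH1 the limit of 3 reads equals 1.07% of its sense reads in Caco2 WT and 0.542% in PIWIL2 KO. For RMRP the limits are 1.54% and 1.09%. No ratio was formed from these zeros. Rows picked by sense CPM nearly all lacked antisense signal. Of the rows past the minimum, which was set on sense CPM only, 126 of 126 of non-coding transcripts had 0 antisense CPM in both genotypes. Of all rows past it, 160 of 161 did. Other rows of the table held antisense reads, as antisense CPM summed over all rows to 81.8 in Caco2 WT and 69.5 in PIWIL2 KO.

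SnoRNAs and small Cajal body RNAs, which guide chemical modification of other RNAs, are the classes nearest to RPPH1 and RMRP in the table, since they too are structured nuclear RNAs bound by proteins. Box C/D snoRNAs (symbols SNORD) guide methylation of ribose, and 57 of 64 rows past the minimum were higher in PIWIL2 KO and 7 lower, with a median log2 ratio of 0.63. RMRP lay below this median and RPPH1 above it, with 24 of the 64 rows above RPPH1 and 41 above RMRP. Box H/ACA snoRNAs (SNORA) guide pseudouridylation, and 12 of 17 rows were higher and 4 lower, with a median of 0.73, 8 above RPPH1 and 11 above RMRP. Of 6 small Cajal body RNAs (SCARNA), 5 were higher, with a median of 1.12, and 4 exceeded both RPPH1 and RMRP. RMRP was also close to the median of 0.36 over 26 microRNA rows, of which 16 were higher. Protein-coding rows had a median of -0.066 over 33 rows, of which 14 were higher, 4 were above RPPH1 and 11 above RMRP. The log2 ratio of RMRP was thus lower than the median of each of the 3 snoRNA and Cajal body classes, and that of RPPH1 higher than 2 of the 3 medians. Rescaling to equal sums, a shift of -0.43 on the log2 scale, leaves these 3 medians above 0 and takes those of microRNA rows and of RMRP below 0.

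**Figure D4:**
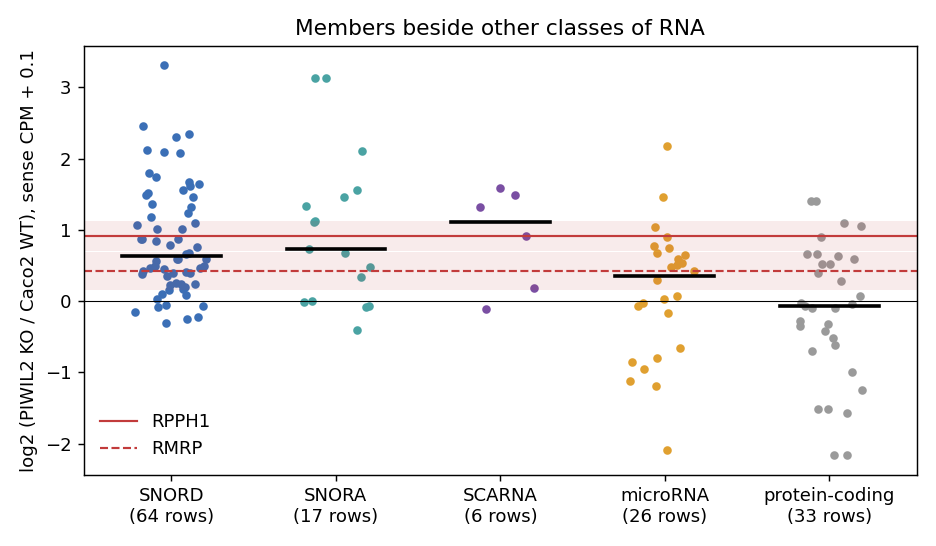
Points are rows past the minimum of 0.3 CPM, grouped by class on the x axis, with log2 (PIWIL2 KO / Caco2 WT) of sense CPM on the y axis, and black bars are class medians. Red lines mark RPPH1 (solid, 0.91) and RMRP (dashed, 0.42) with shaded counting intervals, and the medians of the 5 classes shown run from -0.066 for protein-coding rows to 1.12 for SCARNA rows as deposited (7 rows of other non-coding RNAs, median 0.49, and 6 rows with no gene name, median -1.39, are not shown), all 0.43 lower, and RMRP below 0, when rescaled to equal sums.

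RPPH1 and RMRP are longer than nearly all snoRNAs, so they were set beside the other structured RNAs of at least 200 bases, a limit chosen after the values were seen. Of 8 such RNAs past the minimum, with RPPH1 and RMRP counted among them, 7 were higher in PIWIL2 KO and 1, SCARNA12, was lower. SNORD17, an abundant box C/D snoRNA of 237 bases, had the highest log2 ratio, at 2.12, from 174 CPM in Caco2 WT to 760 in PIWIL2 KO. SCARNA9L, with 348 bases the one nearest to RPPH1 in length, had 98.1 and 246 CPM, a ratio of 2.51 (2.35 to 2.68), and its interval lies above that of RPPH1. SCARNA12, with 270 bases the length that RefSeq gives RMRP, had 5.04 and 4.65 CPM, a ratio of 0.923 (0.642 to 1.32) whose interval overlaps with that of RMRP. SCARNA13 and SCARNA7 had log2 ratios of 1.58 and 1.49 on few reads, 5 and 19 for SCARNA13 and 7 and 23 for SCARNA7. SNORA58, at 1.55 and 2.21 CPM, had an interval that includes 1 (0.784 to 2.65). Of the pairs of like length, the counting intervals lay apart for SCARNA9L and RPPH1 and overlapped for SCARNA12 and RMRP.

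The genes whose sense pattern was most like that of each RNA were taken as the 5 with the nearest log2 ratio among genes within 4-fold of its mean CPM, a measure over 2 pooled values only. For RPPH1, 31 genes lay in this range, 26 of them higher in PIWIL2 KO, and 6 had a higher and 25 a lower log2 ratio than RPPH1. The 5 nearest were the box C/D snoRNAs SNORD121B, SNORD103C, SNORD5, SNORD29 and SNORD16, with log2 ratios from 0.79 to 1.01. SNORD121B, for example, went from 9.39 CPM in Caco2 WT to 17.4 in PIWIL2 KO. For RMRP, 43 genes lay in the range, with 23 above and 20 below it. The 5 nearest were SNORD80, MIR7-1, SNORD20, SNORD83A and SNORD58C, with log2 ratios from 0.38 to 0.45. SNORD80 was nearly equal to RMRP in both genotypes, at 14.8 and 19.9 CPM. In both ranges the median log2 ratio was 0.47, so that among genes of like level RMRP stood in the middle and RPPH1 in the upper part.

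Other genes of the same pathways gave little signal or had no row. All non-coding rows of the table lie on the minus strand, so a missing row does not show that an RNA was absent. Of 11 protein subunits of RNase P and RNase MRP, 1 had a row, RPP30, a subunit of both enzymes, at 0 CPM on both strands in both genotypes. MALAT1 and NEAT1, long non-coding RNAs whose 3′ ends RNase P makes, had none. Among 21 other genes of RNA polymerase III, 1 had a row past 0, RNU6ATAC, the U6 RNA of the minor spliceosome. It had 0.08 and 0.05 CPM in Caco2 WT and PIWIL2 KO, or 1 estimated read in each after rounding. The value in PIWIL2 KO is less than the 0.0738 CPM estimated for 1 read. Of 15 small RNAs of precursor ribosomal RNA cleavage, the process in which RNase MRP acts, 1 had a row. This was SNORD22, at 7.91 and 7.60 CPM, or 102 and 103 reads, a log2 ratio of -0.057 (counting interval of the ratio 0.723 to 1.28). None of the 14 other structured RNAs on the list, which include those of telomerase and the spliceosomes, had a row, and neither listed neighbour gene had one. No RNA of these lists reached the level of RMRP in either genotype.

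The worth of 1 read was taken as the step that put the largest share of low values at whole numbers of reads. It was 0.0776 CPM for Caco2 WT and 0.0738 CPM for PIWIL2 KO, from which about 12900000 and 13600000 reads were uniquely mapped. Of the values from 0.02 to 5 CPM, 44% and 44.9% lay within 0.006 CPM of a whole number of reads, so read numbers are approximate. Of 18 colon epithelial markers, 4 had a row and 2 passed the minimum, the microRNA genes MIR194-1 at 1.32 and 2.29 CPM and MIR192 at 0.23 and 1.40 CPM. Of 6 fibroblast and muscle markers 0 had a row, and of 6 immune markers 1 did, CD68, at 0 CPM. These rows are too few to check the cell type.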

How the data were processed

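Total RNA was extracted from 3 samples of Caco2 WT and 3 of PIWIL2 KO by Trizol and column, and short RNA was sequenced as single 50-base reads (NovaSeq SE50). The authors trimmed the 3′ adapter with Cutadapt 1.15, counted sense and antisense reads with piPipes on hg19, and deposited them as CPM of uniquely mapped reads, pooled per genotype. The paper calls its short RNA values averages of replicates, and the estimated reads assume that reads were added. Groups were taken from the sample titles.

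The members, gene lists and comparisons were chosen with earlier results of these data known. Gene names for 3382 of 3437 rows came from RefSeq (GRCh38.p14, names and lengths only). Log2 ratios used a pseudocount of 0.1 CPM, which understates changes of low rows, and a minimum mean of 0.3 CPM. Reads were estimated from the CPM worth of 1 read, and exact Poisson, Clopper-Pearson and conditional odds ratio intervals (95%, scipy 1.17.1) cover counting error only, since without molecular identifiers PCR copies of 1 molecule count as several reads. The read step and the ratio intervals were checked on simulated Poisson counts made with the estimated step itself. That check cannot show whether the deposited values follow this step or counting error alone. Exact matches were searched on both strands of GRCh37. Genes are named by likeness of ratio, by place next to a member in the order of CPM and from the lists. SNORD17, SCARNA genes and SNORA58 were named after their values were seen. Other tools were Python 3.11.15, numpy 2.4.6, pandas 2.3.3 and matplotlib 3.10.9.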

Additional observations from a re-analysis of the deposited data

How the results depend on the processing

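No paired analysis was possible because each genotype and strand has a single pooled value, and for the same reason no replicate could be left out. The antisense values of both RNAs are 0 in both genotypes and give no ratio under any alternative. With pseudocounts of 0.01 and 1 CPM the log2 ratios of RPPH1 and RMRP, and the difference between them, stayed within their counting intervals. The difference of -0.49 is the same under every scaling by construction. Rescaled to the sum of sense CPM, the log2 ratio was 0.48 for RPPH1 and -0.0054 for RMRP. Centred on the median of all rows, a shift of -0.48, it was 0.43 and -0.062, and centred on the median of SNORD rows, a scaling chosen after seeing the data, 0.28 (0.073 to 0.50) and -0.21 (-0.48 to 0.067).

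Rows at least 2-fold higher in PIWIL2 KO numbered 44 of 161 as reported, 61 of 377 with a minimum of 0.1 CPM, 28 of 107 with 1 CPM, 75 of 1744 with none and 19 of 161 with a pseudocount of 1 CPM. Of 161 rows they numbered 26 rescaled to the sum, 23 centred on all rows and 15 centred on SNORD rows. Rows at least 2-fold lower numbered 14 of 161 as reported, 35 of 377 with a minimum of 0.1 CPM, 6 of 107 with 1 CPM, 44 of 1744 with none and 5 of 161 with a pseudocount of 1 CPM. The number of rows counted thus moved with the minimum. Under the same 3 scalings they numbered 23, 23 and 26.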

Other observations

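Rows near the 2 loci, and the rows of TMEM107, a gene whose annotated UTR holds another RNA of ribosome synthesis, were looked up after the values of RPPH1 and RMRP had been seen. SNORD126, which starts at 20794600 on chromosome 14 on the same strand as RPPH1, went from 3.03 CPM in Caco2 WT to 3.91 in PIWIL2 KO, a ratio of 1.29 (counting interval 0.839 to 2.01). ARHGEF39, whose 3′ end lies 858 bases from the 5′ end of RMRP on the same strand in the annotation, had no row above 0 sense CPM. U8 RNA (SNORD118), a snoRNA needed to process precursor ribosomal RNA, has no row of its own, but GENCODE places it at chr17:8076772-8076905, inside an annotated UTR of TMEM107. Both TMEM107 rows start at 8076297, with no end given, and hold the same values, 2.54 CPM for Caco2 WT and 3.70 for PIWIL2 KO, or 33 and 50 reads, a ratio of 1.46 (0.910 to 2.31). Whether the rows reach U8 RNA, and whether their reads come from it or from the messenger RNA, was not tested.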
